A study of Saccharomyces cerevisiae with 3 samples.

Results

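In all, 10 genes of glucose uptake and glucose sensing were followed through the first generations of replicative ageing in budding yeast. They are the hexose transporters HXT1 to HXT7, the glucose sensors SNF3 and RGT2, and the co-repressor MTH1. They were taken by gene symbol, and all 10 were found as a feature of their own among the 5792 gene features of the array. Cells were of strain BY4742, a haploid strain of the alpha mating type in which HIS3, LEU2, LYS2 and URA3 are deleted, and this background is shared by every sample. Biotin had been attached to the cell surface, which stays on mother cells while daughters build a new wall, and the cells grew in YPD, a rich medium with glucose. Labelled cells were pulled out at the 4th, 7th or 11th generation with beads that bind biotin, and their total RNA was amplified and labelled with Cy3. RNA of 1st generation cells was labelled with Cy5 and hybridised on the same array. The source of the 1st generation cells is not stated, nor is whether all arrays shared 1 preparation of their RNA.

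Yeast imports glucose by facilitated diffusion through the Hxt proteins, which differ in affinity. Hxt1 and Hxt3 are low-affinity carriers made in plentiful glucose, Hxt2, Hxt4, Hxt6 and Hxt7 are carriers of higher affinity made when glucose is low, and Hxt5 is a carrier tied to slow growth more than to the sugar itself. Snf3 and Rgt2 resemble transporters but act as receptors: when they bind glucose, Mth1 is degraded and the repressor Rgt1 leaves the HXT promoters. A separate arm, the Snf1 kinase and the repressor Mig1, silences several high-affinity carriers in plentiful glucose. HXT6 and HXT7 have nearly the same coding sequence, and no probe sequence was used here, so how far their features read each other's transcript was not tested.

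Each generation has a single array, neither replicated nor dye-swapped, so each value is that of 1 hybridisation and carries no error; with so few arrays the precision is limited. Values are log2 of Cy3 over Cy5 after background correction and loess normalization over the array, so a positive value means more signal in the older cells. A value counted as higher or lower when it was at least 2-fold from the 1st generation. In these bulk samples fewer cells of a kind and less transcript per cell cannot be told apart, nor can a dye effect of a probe be separated from generation. Ratios also depended on the place of the spot: features of even print blocks had a median ratio higher than those of odd blocks, by 0.45 at the 4th and 7th and 0.44 at the 11th generation. Of the 10 genes, 8 lie in odd blocks. The ratios of all 10 to the 1st generation are therefore given with those after loess within blocks, where that offset was at most 0.011. Median raw signals over the gene features were between 161 and 177 in Cy5 and between 496 and 591 in Cy3. The limit set by the blank spots was 26.4 to 32.2 in Cy5 and 51.3 to 70.5 in Cy3. No signal of the 10 genes was saturated.

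Marker genes were set against the labels. The 4 alpha-specific genes, which an alpha strain expresses, were above the blanks in both channels of every array, and 2, 3 and 4 of them were at least 2-fold lower at the 4th, 7th and 11th generation (1, 3 and 4 within blocks), where 3.64%, 3.56% and 5.51% of all features were. The 6 a-specific genes, which such a strain keeps off, were above the blanks in Cy5 on every array too, with summed raw Cy5 signals of 344 to 397 over the 6, and 0 of them passed 2-fold. Of the 4 genes deleted in the strain, LEU2 was not above the blanks on any array, and LYS2 and URA3 had Cy5 signals of 30.6 to 41.6, close to the blanks. HIS3 was above the blanks, with Cy5 signals of 435, 430 and 356 and Cy3 signals of 654, 740 and 723. Where its probe lies relative to the deletion is not known, so these signals cannot be set against the label. By loess over the array 0 of the 4 passed 2-fold, though HIS3 did within blocks, at -1.29, -1.10 and -1.07. Of 8 genes that newborn daughter cells switch on, 3, 3 and 4 were at least 2-fold lower at the 4th, 7th and 11th generation. That stands against 3.64%, 3.56% and 5.51% of all features, and the medians of the 8 were -0.28, -0.23 and -0.86. Within blocks the medians were -0.53, -0.40 and -1.08. There 1, 2 and 4 of the 8 genes were lower, against 2.49%, 2.03% and 3.84% of all features. Their summed raw signal in Cy3 was 9355, 7936 and 4899 in that order and in Cy5 between 5270 and 5987, and all 8 stayed above the blanks in both channels. Their part in the values of the transporters was not tested.

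**Figure D1:**
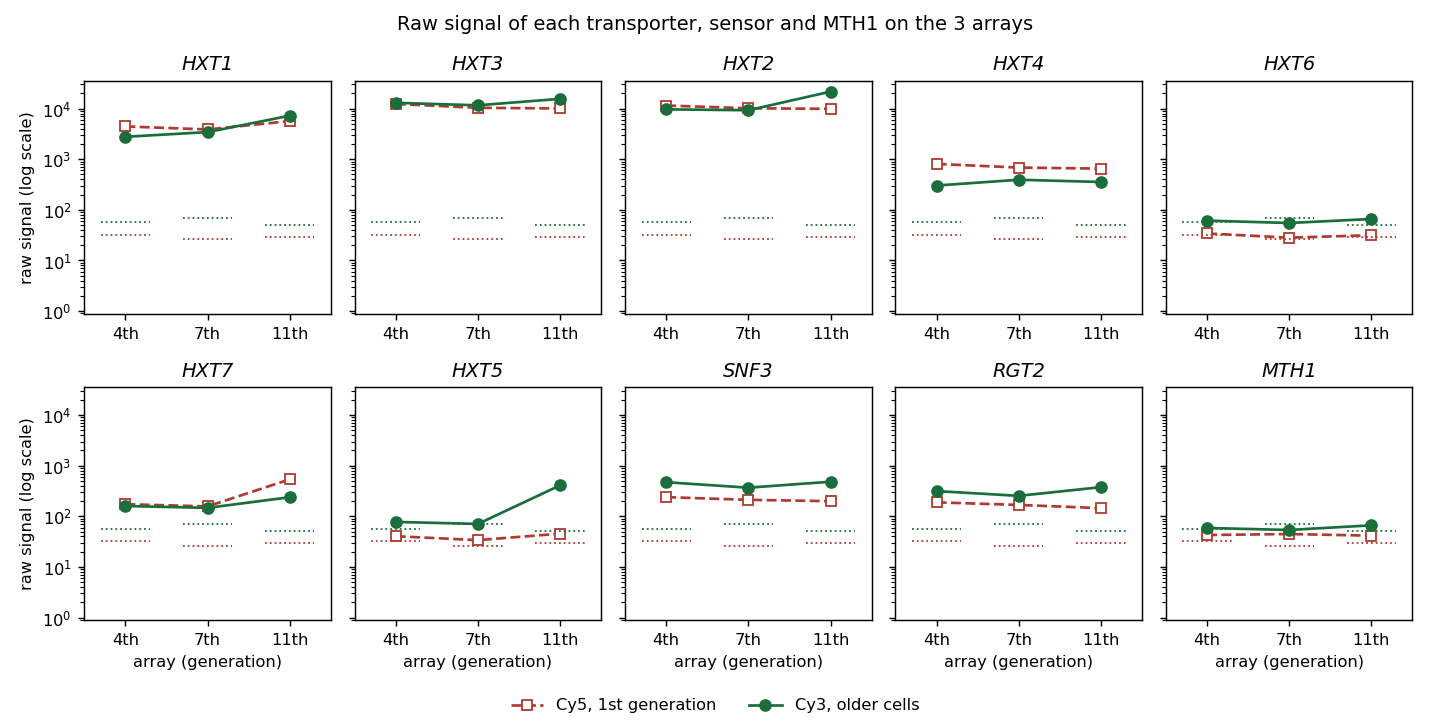
Raw signal on a log axis for each of the 10 genes on each generation's array, with Cy5 (1st generation) as open squares, Cy3 (older cells) as filled circles, and dotted lines at the limit set by the blank spots in each channel. Signals of different probes are not comparable in level; within a panel, HXT5 steps up in Cy3 on the 11th generation array and HXT7 steps up in Cy5 on that array, while HXT6 and MTH1 stay near the limits.

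HXT1 and HXT3, the low-affinity carriers of plentiful glucose, both had their highest ratio to the 1st generation on the 11th generation array. HXT1 (YHR094C) gave raw Cy3 signals of 2777, 3441 and 7256 at the 4th, 7th and 11th generation, beside Cy5 signals of 4450, 3880 and 5679. The older cells were thus dimmest in this probe at the 4th generation and brightest at the 11th. Its log2 ratios were -1.75, -1.19 and -0.49, that is 3.36-fold, 2.29-fold and 1.40-fold below the 1st generation. Within blocks they were -1.58, -1.19 and -0.35, and the same order of the generations was found in the authors' deposited values, at -2.25, -1.81 and -1.54. HXT1 ranked 27 from the lowest of all features on the 4th generation array and 106 from the lowest on the 7th, but 1091 from the lowest on the 11th. At the 11th generation HXT1 was still past 2-fold lower after median centring, at -1.01, and in the deposited values. Whether it was called lower there thus turned with the scaling.

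HXT3 (YDR345C) gave Cy3 signals of 13025, 11644 and 15623 and Cy5 signals of 12376, 10393 and 10076. Its log2 ratios of -0.53, -0.36 and 0.14 stayed within 2-fold of the 1st generation on every array. Within blocks they were -0.17, 0.03 and 0.49. In the authors' deposited values HXT3 was past 2-fold lower on each array, at -1.49, -1.46 and -1.26, and median centring gave -1.04, -0.98 and -0.73. Whether HXT3 was lower at all thus turned with the scaling, and on the 11th generation array its sign did too.

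The carriers of higher affinity did not share a pattern. HXT4 (YHR092C) was low on every array, HXT7 (YDR342C) was low on every array and most so on the 11th, HXT2 (YMR011W) went from below to above the 1st generation under this normalization, and the HXT6 (YDR343C) feature was close to the blanks.

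For HXT4 the Cy3 signals were 303, 393 and 356 and the Cy5 signals 809, 685 and 653. The older cells were dimmer than the 1st generation on each of the 3 arrays, in raw signal as well as after normalization, although the Cy3 channel was the brighter one for the median feature. The log2 ratios were -2.81, -2.25 and -2.53, or 7.02-fold, 4.76-fold and 5.76-fold lower, and -2.45, -1.86 and -2.12 within blocks. Only 1 feature of the 4th generation array had a lower ratio, and HXT4 ranked 6 and 11 from the lowest on the 7th and 11th. The authors' deposited values were -3.17, -2.54 and -2.90.

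For HXT7 the Cy3 signals were 160, 147 and 238 and the Cy5 signals 173, 157 and 536. Its log2 ratios were -1.43, -1.42 and -2.81, or 2.70-fold, 2.68-fold and 7.03-fold lower, and -1.18, -1.30 and -2.57 within blocks. The 4th and 7th generation values lay within 0.01 of each other, and the 11th stood apart from both. What set the 11th generation array apart was the 1st generation channel: scaled to the median feature of its array, the Cy5 signal of HXT7 was 3.01-fold that of the 4th generation array, while its Cy3 signal was 1.31-fold. Of 5444 features, 16 (0.294%) had a Cy5 signal at least 2-fold higher on the 11th generation array than on both others, and HXT7 was number 5 of these by size. Over all 3 arrays, 131 features (2.41%) had Cy5 signals at least 2-fold apart between some pair of arrays, and of the 10 genes HXT7 was the 1 among them. The value of HXT7 at the 11th generation therefore rests on a 1st generation signal unlike that of the other arrays, and whether the spot, the labelling or the RNA differed was not tested. On the 4th and 7th generation arrays, whose scaled Cy5 signals of HXT7 were alike, HXT7 was lower all the same, by more in the authors' deposited values, at -1.94 and -1.98, and under plain subtraction of the blanks, at -2.09 and -2.14.

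HXT6, the neighbour and near twin of HXT7, gave Cy3 signals of 61.3, 55.0 and 66.0 and Cy5 signals of 34.2, 28.2 and 31.5. Its 7th generation Cy3 signal was not above the limit of the blanks, which was raised there: the blanks had an SD of 14.5, with 1 at 294, beside SDs of 4.26 and 3.28 on the other arrays. Its other signals exceeded their limits by little. The log2 ratios of -0.10, -0.072 and -0.058 are those of a feature with hardly any signal of its own, and they do not follow those of HXT7. Within blocks the ratios of HXT6 were -0.10, -0.092 and -0.077. No ratio of HXT6 can be read as a level of the transcript at this signal.

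HXT2 gave Cy3 signals of 9684, 9295 and 21692, the last the brightest signal of the 10 genes, and Cy5 signals of 11521, 10166 and 9902. The 1st generation signal hardly differed between arrays, by 1.09-fold at most after scaling, whereas the older cells were brighter on the 11th generation array than on the other arrays. The log2 ratios were -0.92, -0.71 and 0.72, and -0.50, -0.31 and 1.15 within blocks, where HXT2 passed 2-fold at 2.22-fold higher on the 11th generation array. At the 4th and 7th generation HXT2 was past 2-fold lower after median centring, at -1.37 and -1.28, and as deposited by the authors, at -1.81 and -1.76. At the 11th its value was -0.23 after median centring and -0.76 as deposited by the authors, so the direction of HXT2 against the 1st generation at the 11th generation depends on the scaling.

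HXT5 (YHR096C), the carrier of slow growth, was above the 1st generation level at the 11th generation. Its ratios at the 4th and 7th lay near 0 under this normalization, but with signals close to the blanks. Its Cy3 signals were 77.5, 70.7 and 410, and its Cy5 signals 40.4, 33.8 and 45.4. The 11th generation Cy3 signal was the single value of this probe that stood well clear of the blanks. The log2 ratios were -0.11, -0.081 and 1.05, the last 2.08-fold higher, and 0.018, 0.053 and 1.38 within blocks. An offset of 50 was added to every signal before the ratio, which pulls ratios of dim spots towards 0, and here it matters: the authors' deposited value at the 11th generation was 2.29, a ratio of 4.88, and plain subtraction of the blanks gave 1.94. At the 4th and 7th generation plain subtraction gave -0.60 and -0.52, median centring -0.76 and -0.76, and the authors' deposited values were -0.37 and -0.30. At such signals a ratio near 0 cannot be read as an equal level.

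**Figure D2:**
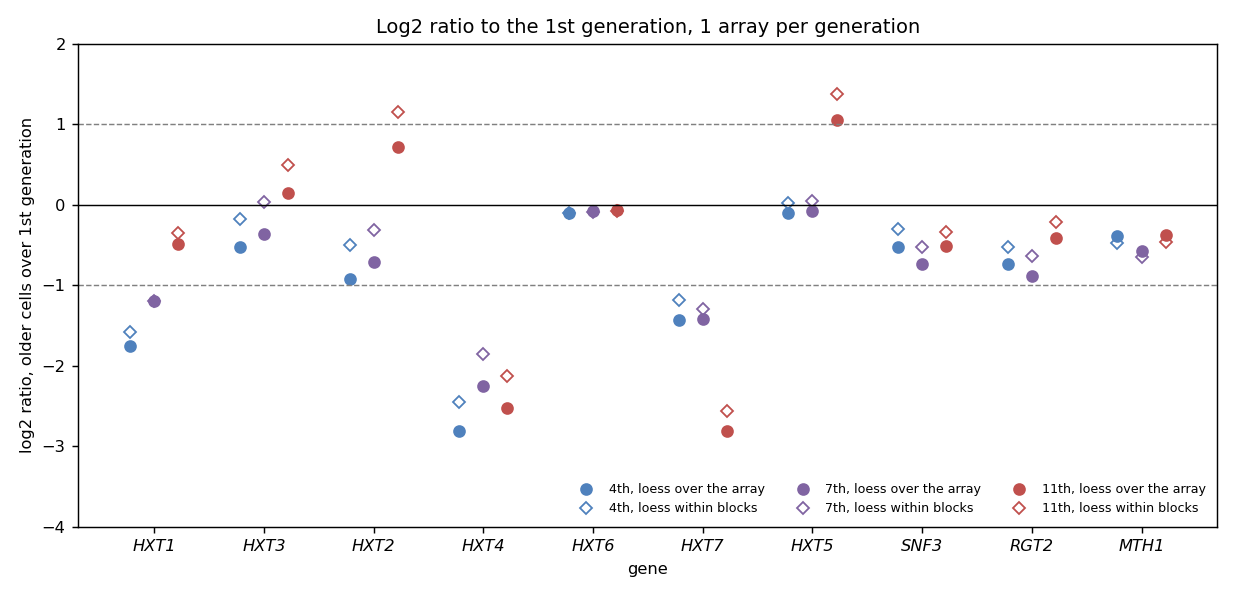
Log2 ratio of older over 1st generation cells for each gene on the 3 arrays, with filled circles for loess over the array and open diamonds for loess within print blocks; dashed lines mark 2-fold. HXT4 and HXT7 lie beyond the lower line on all 3 arrays, HXT1 on the 4th and 7th generation arrays, and HXT5 beyond the upper line at the 11th generation, where HXT2 passes it only within blocks.

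The sensors and the co-repressor stayed within 2-fold. SNF3 (YDL194W), the sensor of low glucose, gave Cy3 signals of 472, 368 and 482 and Cy5 signals of 239, 212 and 199, with log2 ratios of -0.53, -0.74 and -0.51. RGT2 (YDL138W), the sensor of high glucose, gave Cy3 signals of 315, 254 and 377 and Cy5 signals of 189, 168 and 145, with log2 ratios of -0.73, -0.89 and -0.42. Both sensors were below the 1st generation on all arrays, lowest at the 7th generation, and nearer to it within blocks, at -0.31, -0.52 and -0.34 for SNF3 and -0.52, -0.64 and -0.21 for RGT2. RGT2 passed 2-fold at the 7th generation in the authors' deposited values, at -1.08, and under plain subtraction, at -1.19.

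MTH1 (YDR277C) was dim, with Cy3 signals of 58.8, 53.7 and 66.4 and Cy5 signals of 42.7, 44.6 and 41.5. Its log2 ratios were -0.39, -0.57 and -0.38, and -0.47, -0.64 and -0.46 within blocks. In the 7th generation Cy3 channel it was not above the limit raised by outlying blanks, and set against the lowest signal that was, it was at least 1.32-fold lower there. The median blank of that channel was 40.4. The authors' deposited values, which subtract a constant and add no offset, put MTH1 at -2.0, -2.49 and -1.49. A signal this close to the blanks gives MTH1 a sign that was the same in every setting but no stable size.

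Counted over the 10 genes, 3 were at least 2-fold lower at the 4th generation (HXT1, HXT4 and HXT7) and 0 higher, where 3.64% of 5659 features were lower and 4.19% higher. At the 7th generation the same 3 genes were lower and 0 higher, against 3.56% and 4.56% of 5567 features. At the 11th generation 2 were lower (HXT4 and HXT7) and 1 higher (HXT5), against 5.51% and 7.35% of 5703 features. All 10 genes lay below 0 at the 4th and at the 7th generation and 7 of 10 at the 11th, with medians of -0.63, -0.72 and -0.40 beside medians over all features of 0.020, 0.016 and 0.026. These counts include HXT6 and MTH1 on all arrays and HXT5 at the 4th and 7th generation, whose signals were close to the blanks. Within blocks the medians were -0.49, -0.58 and -0.28, and 9, 8 and 7 genes lay below 0. There the same 3 genes were lower at the 4th and 7th generation, against 2.49% and 2.03% of features, with 0 higher against 2.17% and 2.32%, and the 11th generation had 2 lower against 3.84% and 2 higher against 5.75%. The split of lower against higher at the 11th generation was thus 2 to 1, but 2 to 2 within blocks, 3 to 1 under plain subtraction, and 5 to 1 in the authors' deposited values as well as after median centring. For plain subtraction and median centring the shares over all features were not counted, so those splits have no background. Calls are commoner in the authors' deposited values over all features: at the 4th, 7th and 11th generation 6, 7 and 5 of the 10 genes were lower there, against 9.41%, 9.89% and 14% of features, and 0, 0 and 1 higher, against 10.5%, 10.7% and 15.1%. The probe of each gene is a single feature, and related HXT genes are not independent of each other.

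Between generations a fixed effect of a probe or block drops out of the difference, since every array carries 1st generation RNA in Cy5. The 7th and 4th generation arrays were close for these genes: 0 of 10 differed 2-fold, where 0.162% of 5550 features were higher and 0.108% lower, and the SD of the difference over all features was 0.178. HXT1 and HXT4 had the widest differences of the 10, each 0.56 higher at the 7th generation, at ranks 56 and 54 from the highest. SNF3, MTH1 and RGT2 were 0.21, 0.19 and 0.16 lower.

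From the 4th to the 11th generation, 3 of 10 genes were at least 2-fold higher and 1 lower, where 2.66% of 5645 features were higher and 0.886% lower. HXT2 was 3.13-fold higher, a log2 difference of 1.64 that ranked 41 from the highest. HXT1 was 2.40-fold higher, a difference of 1.26 that ranked 88, and HXT5 2.23-fold higher, a difference of 1.16 that ranked 109. HXT7 was 2.61-fold lower, a difference of -1.38 that ranked 17 from the lowest. HXT3 was 0.67 higher, RGT2 0.31 and HXT4 0.29, and HXT6, SNF3 and MTH1 lay within 0.04 of 0. The median of the 10 genes was 0.30, beside 0.006 over all features. HXT1 fell short of 2-fold after median centring, at 0.79, and in the authors' deposited values, at 0.71, where HXT2 was at 1.14 and 1.05. HXT3 was at 0.31 and 0.23 in these 2 settings. For HXT5 the difference was 2.54 under plain subtraction, 1.89 with median centring and 2.66 as deposited by the authors.

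The channels were then read apart, each scaled to the median feature of its array, since a ratio can move through either one. This scaling applies no loess, so the channels need not add up to the difference of the loess ratios. In Cy3 alone, which holds the older cells, HXT5 was 4.31-fold higher on the 11th generation array than on the 4th, HXT1 2.30-fold and HXT2 1.98-fold. In Cy5 alone, where both arrays hold 1st generation RNA, HXT5 was 1.19-fold higher, HXT1 1.36-fold higher and HXT2 1.09-fold lower, so the higher ratios of these genes came with higher signal of the older cells. HXT7 went the other way: its Cy3 signal was 0.39 higher on the log2 scale while its ratio was 1.38 lower, beside the 1st generation signal described above. HXT3 and HXT4 were 0.084 and 0.057 higher in Cy3, so their differences in ratio of 0.67 and 0.29 have no counterpart of that size in the older cells' channel. Median centring, which also applies no loess, put the differences of HXT3 and HXT4 at 0.31 and 0.29. For HXT1 and HXT2 it gave 0.79 and 1.14, below the 1.26 and 1.64 after loess. In Cy3 alone 2 of 10 genes were at least 2-fold higher and 0 lower, against 4.39% and 2.20% of features, and the median of the 10 genes was 0.083 beside -0.067 over all features.

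**Figure D3:**
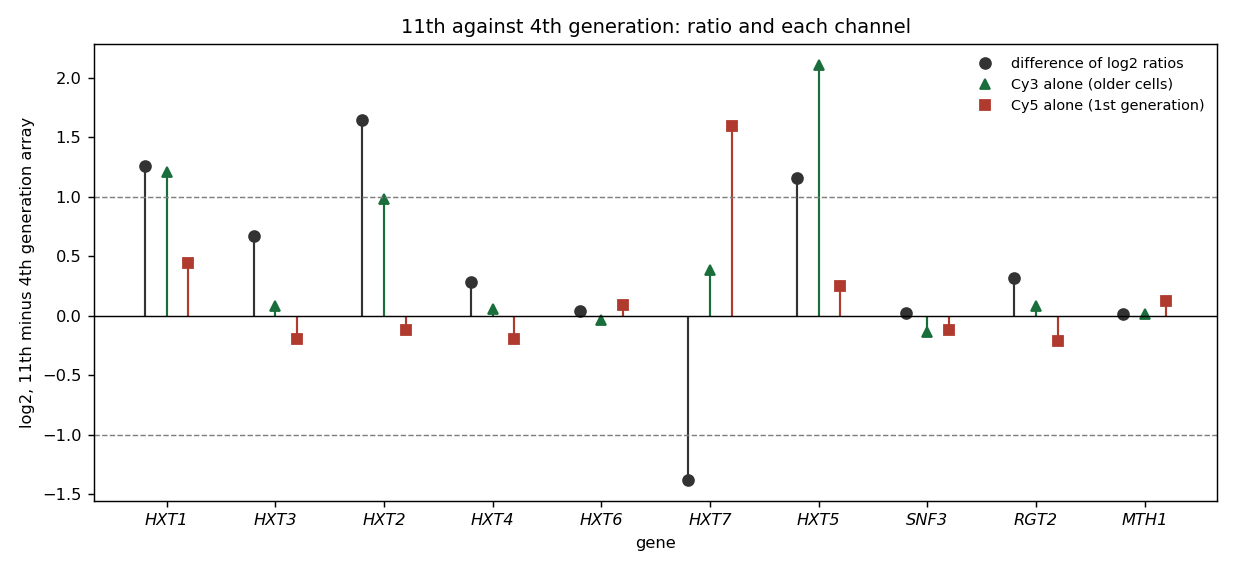
Difference on the log2 scale between the 11th and the 4th generation array for each gene, as the difference of log2 ratios (circles), the Cy3 channel alone (triangles) and the Cy5 channel alone (squares); dashed lines mark 2-fold. HXT1, HXT2 and HXT5 are raised in the ratio and in Cy3, with HXT2 at 0.98 in Cy3, whereas the low ratio of HXT7 comes with a Cy5 difference of 1.59 and a Cy3 difference of 0.39.

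From the 7th to the 11th generation, 2 of 10 genes were at least 2-fold higher, HXT2 by 1.43 and HXT5 by 1.13, and 1 was lower, HXT7 by -1.39, where 1.85% of 5556 features were higher and 0.612% lower. HXT1 was 0.71 higher, and HXT4 was -0.28, that is lower. Since the 4th and 7th generation arrays lay close, the differences of HXT2, HXT5 and HXT7 rest on the 11th generation array alone, whereas HXT1 differed in the same direction at both steps.

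A straight line against generation number was fitted over the 3 arrays with limma for 5546 features above the blanks on every array, which leaves 1 residual degree of freedom per feature. After Benjamini-Hochberg adjustment over all of them 0 of the 10 genes passed 0.05, where 14 features (0.252%) did. Unadjusted, 5 of 10 had a p below 0.05, beside 29.9% of all features. HXT1 came nearest, with a slope of 0.18 per generation (SE 0.020, limma adjusted p = 0.0596), and HXT2 followed with 0.24 (SE 0.041, limma adjusted p = 0.0692). The slopes of HXT3, HXT5 and HXT7 were 0.098, 0.17 and -0.21, with limma adjusted p-values of 0.0830, 0.0833 and 0.0847. RGT2 had 0.306 and HXT4 0.564 as limma adjusted p, and the other genes lay above 0.87. HXT2 and HXT5 passed after median centring, with limma adjusted p-values of 0.0492 and 0.0479, where 298 features passed over all. HXT1 passed when signal above the blanks was asked of both channels, with a limma adjusted p of 0.0485, where 35 features passed. On simulated data the false share of the calls of this test exceeded the nominal one.

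**Figure D4:**
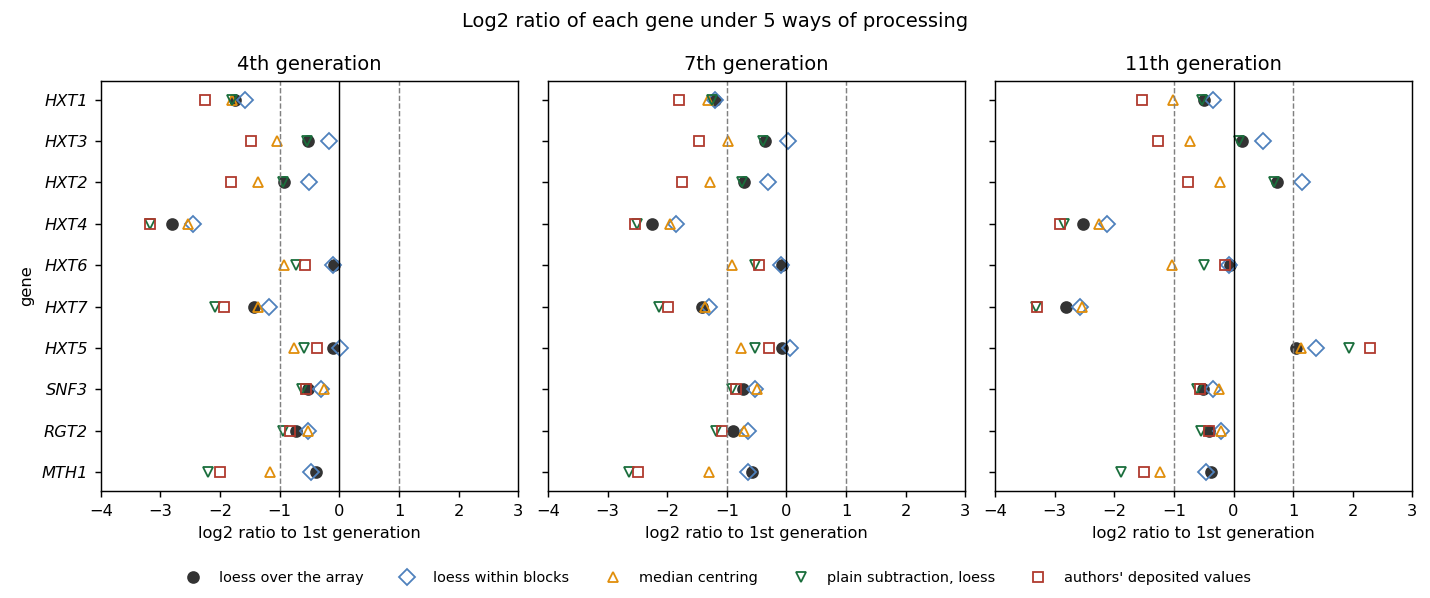
Log2 ratio of each gene against the 1st generation at the 4th, 7th and 11th generation under 5 ways of processing; dashed lines mark 2-fold. HXT4 and HXT7 stay beyond the lower line under every setting, MTH1 spreads from -0.38 to -1.89 at the 11th generation, and HXT2 and HXT3 lie on both sides of 0 at the 11th generation.

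The rest of the glucose pathway was described through 7 lists. The other 10 genes of the hexose transporter family (HXT8 to HXT11, HXT13 to HXT17 and GAL2) were dim, with 6, 7 and 7 of 10 above the blanks in at least 1 channel at the 4th, 7th and 11th generation, and 0 passed 2-fold on any array. In the authors' deposited values, which add no offset, 6, 4 and 7 of those above the blanks had a value. Of these, 3, 2 and 3 were lower and 0, 0 and 2 higher. Over all features 9.41%, 9.89% and 14% were lower there and 10.5%, 10.7% and 15.1% higher. HXT15 was at -1.43, -1.72 and -1.71. HXT8 was at 2.64 at the 11th generation, where its Cy5 signal was not above the blanks. HXT8 and HXT15 were singled out after their values were seen. The Rgt1 arm, that is RGT1, the Mth1 paralogue STD1, the ubiquitin ligase subunit GRR1 and the casein kinases YCK1 and YCK2, also had 0 of 5 past 2-fold, with medians of 0.11, 0.10 and -0.22. STD1, singled out here after its values were seen, was at 0.97, 0.76 and 0.017, and RGT1 at 0.50, 0.51 and -0.016. Within blocks STD1 was at 0.63, 0.44 and -0.36 and RGT1 at 0.23, 0.16 and -0.29.

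Genes other than transporters that Rgt1 controls differed in direction. YKR075C, an uncharacterised gene, gave Cy3 signals of 347, 316 and 764 and Cy5 signals of 1198, 1157 and 1100, with log2 ratios of -3.17, -3.27 and -2.10. Within blocks YKR075C was at -2.89, -2.99 and -1.82. It was low on all 3 arrays, like HXT4, and less so at the 11th generation, by a difference of 1.07. MIG2, a repressor that works beside Mig1, was at -1.19, -1.13 and -0.45, and within 2-fold of the 1st generation within blocks, at -0.82, -0.73 and -0.059. YOR062C, which resembles YKR075C in sequence, was on the high side instead, at 1.52, 1.81 and 2.47, and 1.07, 1.36 and 1.99 within blocks. MIG3 was within 2-fold, so 2 of 4 genes were lower and 1 higher at the 4th and 7th generation. Over all features 3.64% and 3.56% were lower there and 4.19% and 4.56% higher. At the 11th 1 was lower and 1 higher, against 5.51% and 7.35% of features. Within blocks 1 of the 4 was lower and 1 higher on each array. The shares over all features within blocks were 2.49%, 2.03% and 3.84% lower and 2.17%, 2.32% and 5.75% higher.

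In the Snf1-Mig1 arm of 13 genes, 1 was higher and 1 lower at the 4th generation, and 1 higher and 0 lower at the 7th and 11th, where the shares over all features were 4.19%, 4.56% and 7.35% higher and 3.64%, 3.56% and 5.51% lower. In the authors' deposited values 2 were higher on each array and 1, 1 and 2 lower. Over all features the shares there were 10.5%, 10.7% and 15.1% higher and 9.41%, 9.89% and 14% lower. GLC7, the catalytic subunit of the phosphatase that counters Snf1 and that serves many other processes, was at 1.28, 1.40 and 1.68, and 0.93, 1.01 and 1.33 within blocks. SIP2, a subunit of the Snf1 kinase, was at -1.07, -0.96 and -0.73, and its lower call was lost within blocks, at -0.88. SNF1 and MIG1 themselves stayed within 2-fold, SNF1 at 0.21, 0.19 and -0.040 and MIG1 at -0.49, -0.56 and -0.73. Within blocks SNF1 was at 0.52, 0.49 and 0.32 and MIG1 nearer to 0, at -0.043, -0.19 and -0.29. In the authors' deposited values MIG1 was past 2-fold lower at the 11th generation, at -1.01.

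Among the 3 sugar kinases, which trap glucose in the cell after uptake, GLK1, the glucokinase, was higher on each array, at 1.49, 1.32 and 1.82, and within blocks at 1.00, 0.86 and 1.38. HXK1 and HXK2 were within 2-fold, except HXK1 at 1.14 at the 11th generation in the authors' deposited values. Of 12 genes that glucose represses, 0 passed 2-fold at the 4th and 7th generation and 1 at the 11th, a share close to the 7.35% of all features. That was PCK1, which encodes the carboxykinase of gluconeogenesis, with Cy3 signals of 279, 329 and 1788, Cy5 signals of 113, 102 and 111, and log2 ratios of -0.17, 0.066 and 2.04. Within blocks PCK1 was at 0.23, 0.49 and 2.34. The step of PCK1 from the 4th to the 11th generation was 2.22, and it lay in Cy3, as did that of HXT5. The 11 others stayed within 2-fold, and the medians of the list were -0.062, 0.010 and 0.049. Some of these are dim, and in the authors' deposited values, without the offset, JEN1 was at 1.38 and FBP1 at 1.26 at the 11th generation and ADH2 at 1.34, 2.02 and 1.94 over the arrays, genes singled out after their values were seen. There 1, 1 and 4 of the 11 genes with a value were higher, against 10.5%, 10.7% and 15.1% of all features. Those lower numbered 0, 1 and 0, against 9.41%, 9.89% and 14%. The lower gene was CAT8, at -1.29 at the 7th generation. In the Gpr1-PKA arm of 12 genes, the cAMP route that also answers to glucose, 0 passed 2-fold. In the authors' deposited values 1 was higher and 1 lower at the 11th generation, against 15.1% and 14% of all features. Within blocks GPA2 passed 2-fold at the 11th generation, at 1.05. The Cy5 signal of GPA2 itself differed by 2.03 on the log2 scale between arrays, with raw signals of 688, 133 and 554. The unlike array was the 7th, where its Cy3 signal was low too, at 449 beside 2419 at the 4th and 2999 at the 11th.

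**Figure D5:**
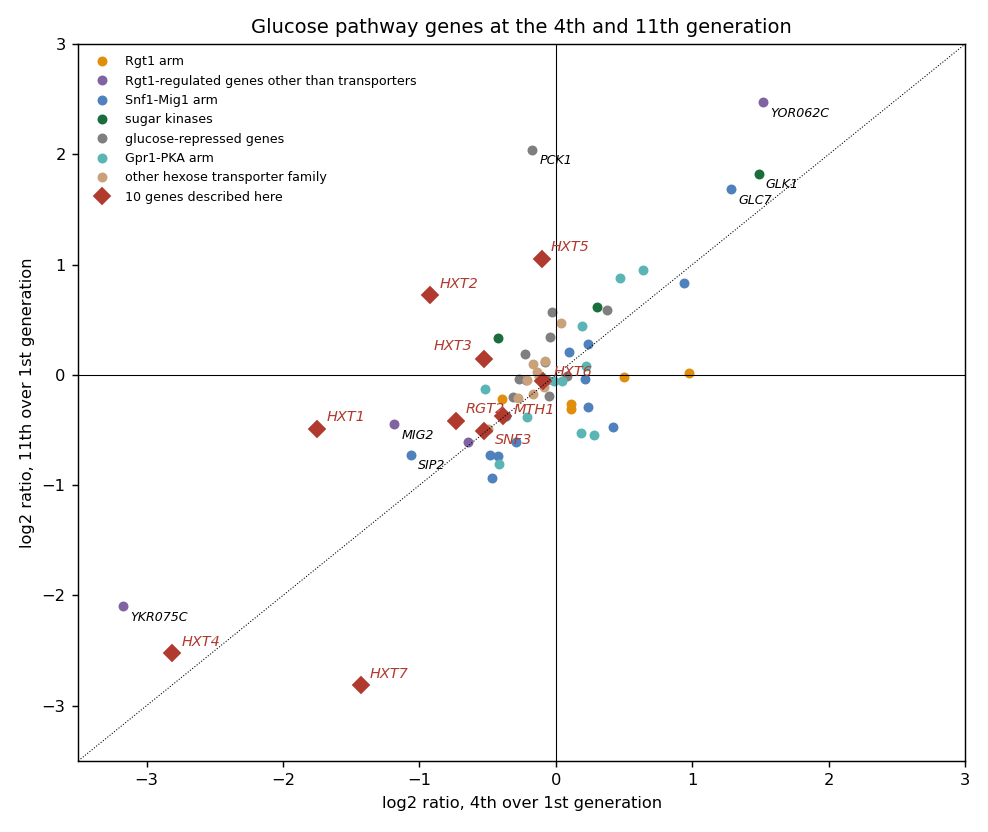
Log2 ratio at the 4th generation (x axis) and at the 11th (y axis), each against the 1st, for the 10 genes as diamonds and for the genes of the 7 pathway lists as circles; the dotted line marks equal values, and pathway genes past 2-fold on any array are named. HXT1, HXT2, HXT5 and PCK1 lie above the line, HXT7 lies below it, and HXT4 lies close to it in the lower left with YKR075C.

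The gene order places 6 of the HXT genes in runs on chromosomes VIII and IV. HXT4, HXT1 and HXT5 follow each other on chromosome VIII with AHT1, which has no value here, between the first pair. Their log2 ratios at the 11th generation were -2.53, -0.49 and 1.05, so the run held the highest value of the 10 genes and their lowest but for HXT7. The genes that flank this run were at -0.14 (MSR1, next to HXT4) and 1.34 (PAL2, next to HXT5). HXT7, HXT6 and HXT3 lie in this order on chromosome IV, with YDR344C, which has no value here, between the last pair, at -2.81, -0.058 and 0.14, with SVF1 beside HXT3 at 1.23.

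For the genes past 2-fold on any array, the features whose 3 log2 ratios lay nearest by Euclidean distance were looked up among 5076 candidates. With 3 arrays such a likeness is weak, and it says nothing on shared control. Nearest to HXT1 were SPL2, a regulator of phosphate uptake, at a distance of 0.13, the acetyltransferase gene HPA3 at 0.25 and the mitochondrial chaperonin HSP10 at 0.28. Nearest to HXT4 were the histidine biosynthesis gene HIS4 at 0.44, NFG1 at 0.45 and the cell fusion gene FUS1 at 0.65, which shows how few features were as low as HXT4 on every array. Nearest to HXT5 were the mitochondrial ribosomal protein gene RSM19 at 0.18, the seripauperin PAU2 at 0.19 and the quinone oxidoreductase gene ZTA1 at 0.20. Nearest to HXT7 were the acid phosphatase PHO3 at 0.17, the daughter-cell gene EGT2 at 0.32 and the endonuclease gene HO at 0.51. The 3 ratios of EGT2 were -1.24, -1.37 and -2.56, and EGT2 is one of the daughter-cell markers above. Its channels were unlike those of HXT7, with Cy3 signals of 1723, 1482 and 842 and Cy5 signals of 1703, 1573 and 1745. For HXT7 the Cy3 signals were 160, 147 and 238, and its 11th generation ratio rests on the raised 1st generation signal described above.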

How the data were processed

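Total RNA of BY4742 cells was measured on 3 two-colour oligonucleotide arrays, 1 per older generation, each against the 1st generation. Per the file headers, the array files hold the raw intensity of each spot in both channels, and the authors then subtracted 1 constant per channel, scaled Cy3 by 1 factor per array (0.340, 0.324 and 0.270) and gave the ratio of Cy3 over Cy5. The deposited series table gives its log2, which differs from the ratios of the array files by at most 5e-08. The image software is not given in the sources used here.

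The raw intensities were used. Each array carries 6272 spots, 5792 of them gene features and 320 blanks, in 16 print blocks of 392 spots inferred from the order of the spots. The RefSeq gene table of assembly R64 held the systematic name of 5730 features, and no coordinates were taken from it. Signals were corrected by normexp with an offset of 50 and normalised by loess over the array with limma 3.58.1 (R 4.3.3), control spots having weight 0. A feature entered a count when at least 1 channel lay more than 2 SD above the mean of the blanks. Differences and lists were computed with Python 3.11.15, numpy 2.4.6 and pandas 2.3.3. Generations were compared by values and 2-fold counts, since 1 array gives no error. A trend with generation was tested with limma's lmFit and eBayes and Benjamini-Hochberg adjustment over 5546 features, and that test was tried on simulated data, where the false share of its calls exceeded the nominal one. Its p-values measure the spread around a line over 3 arrays, not between separate cultures. A test of the mean of the 3 arrays against 0 was not run, because a fixed effect of a probe or block would enter it.

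The genes named were all 10 genes, the members of the 7 pathway lists past 2-fold on any array, and for each of the 10 genes past 2-fold the 3 nearest features. The 10 genes, the pathway lists, the marker lists (alpha-specific, a-specific, deleted in BY4742, daughter-cell genes) and the tests were chosen with earlier results of these data known. The alternatives were loess within blocks, median centring, plain subtraction of the blanks, the authors' deposited values, signal above the blanks in both channels, rank of generation for the trend and, added after the data were seen, the Cy3 channel alone.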

Additional observations from a re-analysis of the deposited data

Results flagged for a closer look

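For 3 of the 10 genes the log2 ratio to the 1st generation lay below 0 at the 4th generation and above 0 at the 11th, so the generations differed in direction. The difference between the generations was 1.64 for HXT2, 1.16 for HXT5 and 0.67 for HXT3. After median centring these differences were 1.14, 1.89 and 0.31, and in the authors' deposited values 1.05, 2.66 and 0.23. Each rests on 1 array per generation, and the difference between the 2 arrays itself was not tested. The sign of HXT2 and HXT3 at the 11th generation, and that of HXT5 at the 4th, turned in another setting.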

How the results depend on the processing

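Of 120 values of the 10 genes against the 1st generation recomputed under another normalization or background correction, 113 kept their sign, and the 36 recomputed values of genes past 2-fold stayed past it in the same direction. Within blocks, HXT5 was at 0.018 and 0.053 at the 4th and 7th generation and HXT3 at 0.032 at the 7th. HXT2 and HXT3 at the 11th generation were at -0.23 and -0.73 after median centring and at -0.76 and -1.26 in the authors' deposited values. The median of the 10 genes at the 4th generation was -0.94 under plain subtraction, -1.10 after median centring and -1.65 in the deposited values; at the 7th it was -1.05, -1.13 and -1.61, and at the 11th -0.87 after median centring and -1.01 in the deposited values. Genes at least 2-fold lower at the 4th, 7th and 11th generation numbered 6, 5 and 5 after median centring and 6, 7 and 5 in the deposited values, with 5 at the 7th under plain subtraction, and 2 were higher at the 11th within blocks. Over all features 9.41%, 9.89% and 14% were lower in the deposited values and 5.75% higher at the 11th within blocks. No such share was counted for median centring or plain subtraction, so those counts cannot be set against a background. In Cy3 alone, the 11th against the 4th generation gave a median of 0.083, 0 genes lower and HXT7 at 0.39, opposite to its ratio. The trend called 2 of the 10 genes after median centring and 1 with both channels above the blanks, and over all features 30 within blocks, 298 after median centring, 35 with both channels above the blanks, and 0 under plain subtraction, in the deposited values and by rank. The causes were not tested. No paired analysis was possible because each generation has 1 array, and no replicate could be left out for the same reason. Signal close to the blanks limits what can be said of HXT6 and MTH1 on all arrays and of HXT5 at the 4th and 7th generation.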
